A study of Mus musculus with 5 samples.

Results

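The 5 tektin genes (Tekt1, Tekt2, Tekt3, Tekt4 and Tekt5) and 3 further genes of proteins that line the inside of the doublet microtubule (Enkur, Mns1 and Efhc2) were described in sorted ciliated cells of the embryonic mouse lung. The 8 genes were chosen by name, and their probe sets, the groups of short probes that report 1 transcript on the array, were taken where the platform's annotation gave that gene alone. Each of the 8 genes had exactly 1 such probe set, so 8 of 34945 probe sets, and 8 of 18193 named genes, are described. The series holds 1 group of 5 biological replicates, with 1 Affymetrix array each. They are GFP+ cells from E17.5 lungs of FOXJ1-GFP embryos, whose parents were FOXJ1-GFP mice and mice of the outbred ICR strain, and the cells were released with trypsin and EDTA and collected by flow cytometry. The reporter marks cells with FOXJ1 promoter activity, and whether a replicate pooled several embryos or litters was not given in the labels or the methods. With no second group, each gene was tested for its level against background, its spread between the replicate sorts was described, and p-values measure only the spread between these 5 samples.

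The motile cilium is built on doublet microtubules, and many proteins bind to the inner wall of these tubes. Tektins are coiled-coil proteins that form long filaments inside the complete tubule of the doublet. In structures of cattle airway cilia, Tekt1 to Tekt4 make up the tektin bundle, while Tekt5 is known mainly from the sperm tail. Enkur encodes enkurin, Mns1 a coiled-coil protein that mice need for motile cilia and sperm tails, and Efhc2 a protein with DM10 domains and a relative of the ribbon protein Rib72 of green algae. Genes of motile cilia are known targets of RFX factors, which bind a sequence named the X-box, and of the forkhead factor FOXJ1.

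Promoter windows of all 8 genes were read from RefSeq sequence (GRCm38.p6), each covering 250 bases before the start site and 50 bases from it on. Because RFX factors and FOXJ1 are the factors named most often for such genes, the windows were searched for the repeated part of the X-box, spelled GTTGCC or GTTGCT and here named the X-box motif, and for a forkhead motif, all on both strands. The following stretches run 5′ to 3′ on the strand of the gene, from 80 bases before the first listed start site to 4 bases after it. They are shown for the 6 genes with an X-box motif close to the start, and capitals mark the X-box motifs.
Tekt1, chr11:72361878-72361962, minus strand: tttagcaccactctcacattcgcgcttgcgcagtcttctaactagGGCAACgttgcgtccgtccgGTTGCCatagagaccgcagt
Tekt2, chr4:126325684-126325768, minus strand: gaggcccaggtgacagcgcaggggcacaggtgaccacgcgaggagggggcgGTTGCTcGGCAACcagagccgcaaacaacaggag
Tekt3, chr11:63061579-63061663, plus strand: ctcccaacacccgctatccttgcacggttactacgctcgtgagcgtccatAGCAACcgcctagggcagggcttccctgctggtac
Tekt4, chr17:25471510-25471594, plus strand: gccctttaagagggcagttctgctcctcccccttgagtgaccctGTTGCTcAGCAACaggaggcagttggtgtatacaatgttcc
Enkur, chr2:21205361-21205445, minus strand: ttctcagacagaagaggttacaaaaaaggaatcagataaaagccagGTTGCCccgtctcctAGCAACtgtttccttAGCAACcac
Mns1, chr9:72438449-72438533, plus strand: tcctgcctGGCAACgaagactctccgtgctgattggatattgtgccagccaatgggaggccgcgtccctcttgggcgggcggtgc

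In Tekt2 and Tekt4, a pair of X-box motifs faced each other with 1 base between them. The joined letters were GTTGCTCGGCAAC in Tekt2 and GTTGCTCAGCAAC in Tekt4, and they began 29 and 36 bases before the start. A facing pair was searched for as GTTGCNNGCAAC and with 1, 2 or 3 further bases in its middle, on both strands, so that most of its letters are those of 2 X-box motifs. Such a pair stood in 2 of the 8 genes and in 136 of 27025 genes with a window (0.503%). In Enkur the facing X-box motifs were 9 bases apart and were followed after another 9 bases by one more, which reached over the start site. In Tekt1 they pointed away from each other with 14 bases between them, and Tekt3 and Mns1 held single X-box motifs in the printed stretch.

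An X-box motif within the 80 bases before a listed start site was found for 6 of 8 genes, against 2488 of 27025 genes with a window (9.21%). Over the whole window the count was 7 of 8, against 7547 of 27025 (27.9%). Tekt5 was the seventh, with its X-box motif 235 bases before the start, and no match was found in the window of Efhc2. A forkhead motif, TGTTTAC or TGTTTGT on either strand, stood in the window of Tekt3, 174 bases before the start, and in 11.2% of all genes with a window. It was not found in the windows of the other 7 genes. A match is a run of letters and no evidence of binding, and nothing on the arrays measured binding.

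**Figure D1:**
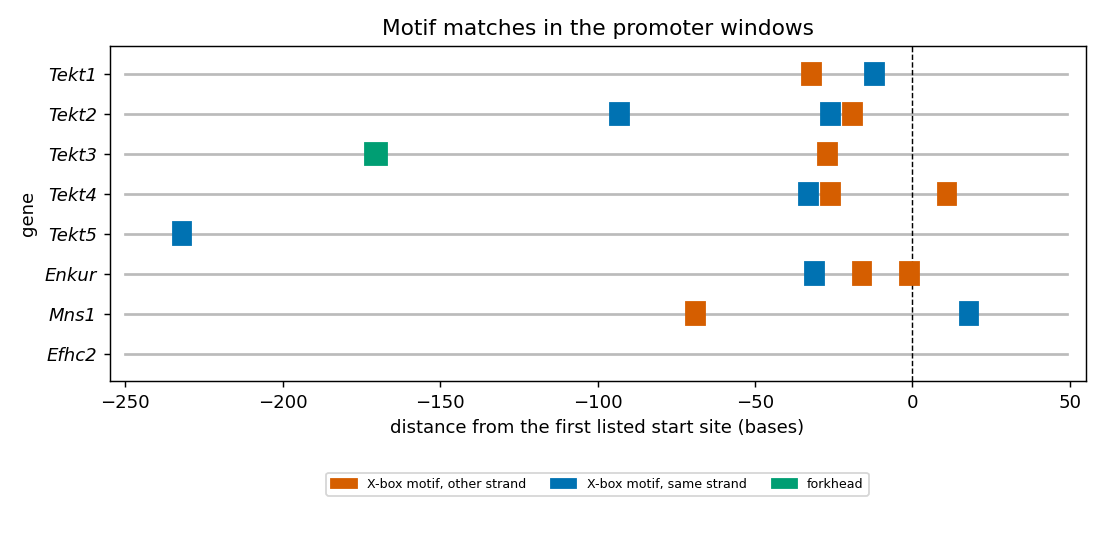
Position of motif matches in the promoter windows of the 8 genes. The horizontal axis is the distance in bases from the first listed start site (dashed line), each grey line is 1 window, and each block is 1 match drawn to its length: blue for an X-box motif on the gene's strand, orange for one on the other strand and green for a forkhead motif. X-box motifs lie within 80 bases before the start in 6 of 8 genes, and in Tekt2 and Tekt4 a facing pair is 1 base apart.

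Transcripts of all 8 genes were measured above the background of the arrays. Values are log2 signals, on which 1 unit is a doubling. As background, 157 genes listed as foreign to airway ciliated cells were taken. They were 76 olfactory, vomeronasal or taste receptors and 81 genes of other tissues, such as liver, retina and muscle. The level was set at 7.16, which 95% of their means did not exceed. Among the 81 was Pdgfb, matched through a synonym of the listed gene Sis, and its mean was above this level. The effect of this match on the level was not tested. A gene was called above background where limma's moderated one-sided test over the 5 arrays gave an adjusted p under 0.05. By this test 64.3% of all named genes were above background, 48.7% of the 9183 genes that have 1 probe set, as these 8 have, and 55.4% of single probe sets. A lower level of 5 was also tried, a number taken from the study, which set it on an average expression in a comparison with tip progenitors and not on the mean of these 5 arrays. This cut-off, used here on the log2 scale, was passed by 8 of 8 genes, by 81.3% of all named genes and by 70.2% of those with 1 probe set. The median of the 8 gene means was 12.90, beside 9.07 over all named genes. Since brightness also differs with the probes' own sequences, each gene is set against the level and the genes are not ranked against each other.

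Tekt1 and Tekt2 gave the most even values among the tektins. Tekt1, a component of the tektin bundle, had 13.68, 13.65, 13.65, 13.66 and 13.60 in replicates 1 to 5, and a mean of 13.65 ± 0.03 (SD, n = 5 arrays). Tekt2, which mice need for sperm movement and for motile cilia, had 13.55, 13.51, 13.59, 13.54 and 13.50, and a mean of 13.54 ± 0.03. Their ranges over the 5 arrays were 0.08 each, a ratio of 1.06 between the highest and the lowest array. They lay 6.48 and 6.37 above background (adjusted p = 4.89e-11 for both, limma). The annotated probe set of Tekt1 is of the type designed to match several transcripts of the same gene, the only such one of the 8.

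Tekt4 was likewise far above background, with a little more spread. It had 12.78, 12.64, 12.52, 12.68 and 12.55 in replicates 1 to 5, a mean of 12.63 ± 0.10 (SD, n = 5 arrays) and a distance of 5.47 from background (adjusted p = 6.86e-11, limma). Replicate 1 was the highest and replicate 3 the lowest, and no array was near the background level.

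Tekt3 and Tekt5 were the tektins that varied most between the sorts. Tekt3, known for its part in sperm movement in mice, had 9.77, 9.56, 9.29, 9.36 and 9.37 in replicates 1 to 5. Its mean was 9.47 ± 0.20 (SD, n = 5 arrays), 2.31 above background (adjusted p = 3.1e-08, limma). Tekt5, known mainly from the sperm tail, had 8.60, 8.35, 7.71, 7.90 and 8.07, and a mean of 8.13 ± 0.35. The mean was 0.96 above background (adjusted p = 0.000152, limma), and all 5 arrays were above the level of 7.16. Tekt5 was the closest of the 8 to its threshold, and its call was lost with the other tissues' genes alone as background (0.18 above it, adjusted p = 0.249, limma). Against the 99th percentile of all 157 background genes it lay below the level (-0.68), so the call for Tekt5 does not hold for either of these stricter backgrounds.

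**Figure D2:**
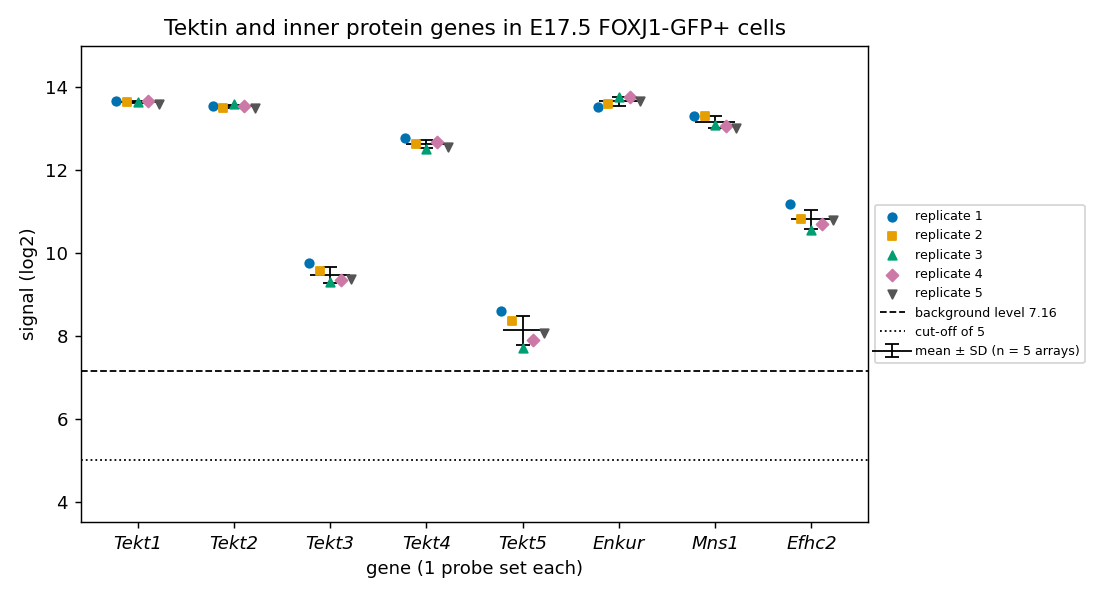
Signal of the tektin and inner protein genes in the 5 replicate sorts. The vertical axis is the deposited log2 signal, each symbol is 1 replicate, the bar with its whiskers is the mean ± SD (n = 5 arrays), the dashed line is the background level of 7.16 and the dotted line the cut-off of 5. All symbols lie above both lines, and those of Tekt5, between 7.71 and 8.60, lie nearest to the background.

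The 3 genes that are not tektins were all above background as well. Enkur had 13.53, 13.59, 13.77, 13.76 and 13.66 in replicates 1 to 5, with a mean of 13.66 ± 0.11 (SD, n = 5 arrays) and a distance of 6.50 from background (adjusted p = 4.89e-11, limma). Mns1 had 13.30, 13.30, 13.09, 13.07 and 13.02, with a mean of 13.16 ± 0.14, 5.99 above background (adjusted p = 7.06e-11, limma). Replicates 1 and 2 stood 0.15 above the mean of Mns1, and the other 3 arrays lay below it. Efhc2, on the X chromosome, had 11.19, 10.82, 10.55, 10.69 and 10.79, with a mean of 10.81 ± 0.24, 3.64 above background (adjusted p = 3.64e-09, limma). Its highest array was replicate 1 and its lowest replicate 3.

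Between the replicate sorts, the median SD of the 8 genes was 0.12, beside 0.16 over the 11690 genes above background. The genes differed widely in this respect. Among genes above background whose mean lay within 0.5 of its own, Tekt1 had a smaller SD than all but 4.4% (409 genes) and Tekt2 than all but 4.7% (488 genes). Tekt4 and Tekt3 were near the middle, with 44.3% and 56.8% of genes of like level having a smaller SD. For Enkur, Mns1, Efhc2 and Tekt5 the share was 70.0%, 74.2%, 80.2% and 81.5%. These shares are descriptions across genes, which are not independent replicates.

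Tekt3, Tekt5 and Efhc2 put the 5 arrays in the same order, with replicate 1 highest, then replicates 2, 5 and 4, and replicate 3 lowest. Enkur had the reverse order on the deposited values, though with arrays centred on their medians its highest was replicate 4. Replicate 1 lay 0.47 above the mean of Tekt5, 0.38 above that of Efhc2 and 0.30 above that of Tekt3, and 0.14 below that of Enkur (-0.14). Replicate 3 lay below the mean by 0.41 for Tekt5 (-0.41), 0.26 for Efhc2 (-0.26) and 0.18 for Tekt3 (-0.18), and above it by 0.11 for Enkur. The range of Tekt5 was 0.89, a ratio of 1.85 between its highest and lowest arrays, that of Efhc2 0.64 (ratio 1.55) and that of Tekt3 0.48 (ratio 1.40). Without replicate 1 the ranges were 0.63, 0.27 and 0.27, for Efhc2 and Tekt3 a fall by over 1.5 times. Replicate 1 was the highest array of all 3 genes, so leaving it out lowers each range by construction. The order shared by the 3 genes was also that of 693 of the 11690 genes above background (5.93%), and its reverse that of 420 (3.59%). Neither order is therefore particular to these genes, and the genes are no independent tests of it.

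**Figure D3:**
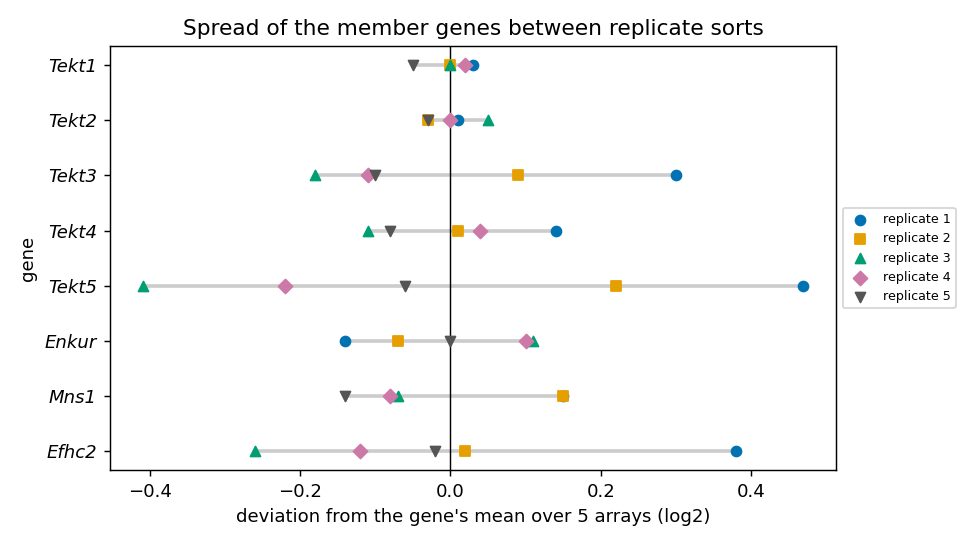
Deviation of each array from the gene's own mean, for the 8 genes. The horizontal axis is the log2 signal less the gene's average, each symbol stands for 1 replicate, the grey bar spans the lowest and highest, and the symbols of replicates 1 and 2 coincide for Mns1. Tekt5, Efhc2 and Tekt3 have replicate 1 at the right end (0.47, 0.38 and 0.30) and replicate 3 at the left, Enkur the reverse, and Tekt1 and Tekt2 span 0.08 each.

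Of the control probe sets on the array, 1 pair of 4 moved with this order. The controls hold pairs at the 3′ and the 5′ end of a few transcripts, and a larger difference between the ends is a usual sign of shorter RNA or of amplification from the 3′ end. For Gapdh the 3′ minus 5′ difference was 1.02, 1.03, 1.43, 1.25 and 1.14 on the log2 scale in replicates 1 to 5. This is the order of the values of Enkur from lowest to highest, and the reverse of that of Tekt3, Tekt5 and Efhc2. The 3 other pairs had other orders: Actb ran from 0.51 in replicate 2 to 0.72 in replicate 4, Tfrc from 3.04 in replicate 4 to 3.70 in replicate 3, and Pcx from 3.36 in replicate 2 to 3.85 in replicate 4. The part of RNA quality in the spread of the 8 genes was not tested.

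Genes of other cell types differed between the sorts too, in several patterns. Averaged over the genes above background, replicate 1 lay below the genes' own means by 0.63 for 9 genes of alveolar type 2 cells (-0.63), by 0.56 for 6 white blood cell genes (-0.56) and by 0.55 for 10 endothelial genes (-0.55). For 11 genes of ciliated cells it lay 0.07 above, and for the 8 genes described here 0.17 above. In replicate 3 the values were -0.11 for alveolar type 2 cells, 0.10 for white blood cells, 0.40 for endothelium and -0.04 for ciliated cells. Replicate 1 was also lowest for alveolar type 1 genes (-0.19) and mesenchymal genes (-0.21). For 5 mesothelial genes, in contrast, replicate 1 was highest (0.17) and replicate 3 lowest (-0.31). Replicate 1 was not at an end of every list. For 8 club and goblet cell genes replicate 4 was highest (0.34) and replicate 5 lowest (-0.25), with replicate 1 at 0.11. For neuroendocrine genes replicate 5 was highest (0.14). In sorted RNA, fewer cells of a type and less RNA per cell cannot be told apart, and the part of cell composition was not tested.

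**Figure D4:**
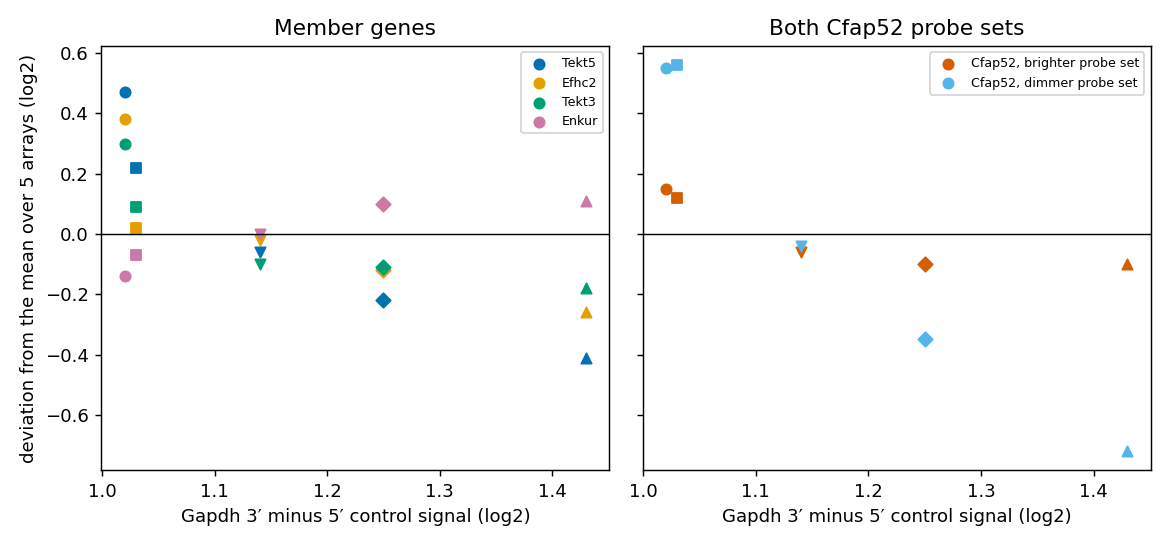
Deviation from the mean over 5 arrays against the Gapdh control difference. The horizontal axis of both panels is the 3′ minus 5′ signal of the Gapdh controls on the same array, the vertical axis the deviation of a probe set, both in log2; symbol shapes stand for the replicates (circle 1, square 2, triangle 3, diamond 4, inverted triangle 5). Left, Tekt5, Efhc2 and Tekt3 are lowest and Enkur highest in replicate 3, where the control difference was 1.43; right, 2 probe sets of Cfap52 span 0.25 and 1.28.

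A like order appeared in some probe sets of other inner protein genes. Its presence or its size differed between probe sets of the same gene. Cfap52, a protein with WD repeats in the doublet lumen, has 2 probe sets. The brighter had 13.43, 13.40, 13.18, 13.18 and 13.22 in replicates 1 to 5, a range of 0.25. Replicate 1 was highest there and replicates 3 and 4 were lowest. The dimmer had 11.79, 11.80, 10.52, 10.88 and 11.20, a range of 1.28, with replicates 1 and 2 highest and replicate 3 lowest. Saxo2, a microtubule-binding protein gene, has 4 probe sets: 2 of them spanned 0.82 and 0.77 with replicate 1 highest and replicate 3 lowest, the brightest spanned 0.21 with replicate 3 highest, and the last spanned 0.60. With 1 probe set each, Tekt3, Tekt5 and Efhc2 allow no such comparison within the gene. The called probe set of Nme7 had 13.54, 13.47, 13.13, 13.29 and 13.34 in replicates 1 to 5, the order of Tekt5. Ribc2 had 10.94, 10.91, 11.44, 11.48 and 11.31, with replicate 4 highest and replicates 1 and 2 lowest. The probe sets of this paragraph were picked after their values were seen, and orders were not counted over the wider set.

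Most of the other inner protein genes matched on the array were above background. Of 34 listed genes, 20 were matched by name. The list also gave older clone names, and these were not used where RefSeq did not pair them with the listed gene. Some of the genes left out were dropped after values had been seen, so the 20 are not a set fixed beforehand. Of the 20 matched, 17 (85%) were above background, beside the 64.3% of all named genes given above. The median of their means was 12.10, and their median SD was 0.11. Cfap20, a protein of the inner junction between the doublet's tubules, was at 13.17 ± 0.11 (SD, n = 5 arrays). Efhb had a level of 10.48 ± 0.09, Nme7, a member of the nucleoside diphosphate kinase family, 13.35 ± 0.16, and Cfap45 12.49 ± 0.05. The second probe set of Nme7 was at 4.18 ± 0.20, below background, so the call for Nme7 holds for 1 of its 2 probe sets, and the same was so for Fam166c, at 13.48 ± 0.08 and 6.51 ± 0.30.

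The 3 matched genes that were not above background were Tepp at 5.55 ± 0.11, Fam166a at 5.39 ± 0.21 and Ccdc105 at 5.23 ± 0.34 (SD, n = 5 arrays; adjusted p = 1 for each, limma). Ccdc105 encodes a tektin-like protein of the sperm tail, and it had 4.92, 5.60, 4.97, 5.05 and 5.59 in replicates 1 to 5. Tepp had 5.50, 5.66, 5.39, 5.62 and 5.59, and Fam166a 5.29, 5.45, 5.45, 5.10 and 5.68. No array reached 7.16 for any of the 3, whereas every array did for Tekt5. Among 27 measured genes of sperm, such as those of protamines and the acrosome, 6 were above background (22.2%), and 12 had means at or below 5. Acr, a gene of the acrosome, was among those 6, at 8.10 ± 0.33 (adjusted p = 0.00012, limma). Its mean was close to the 8.13 of Tekt5.

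**Figure D5:**
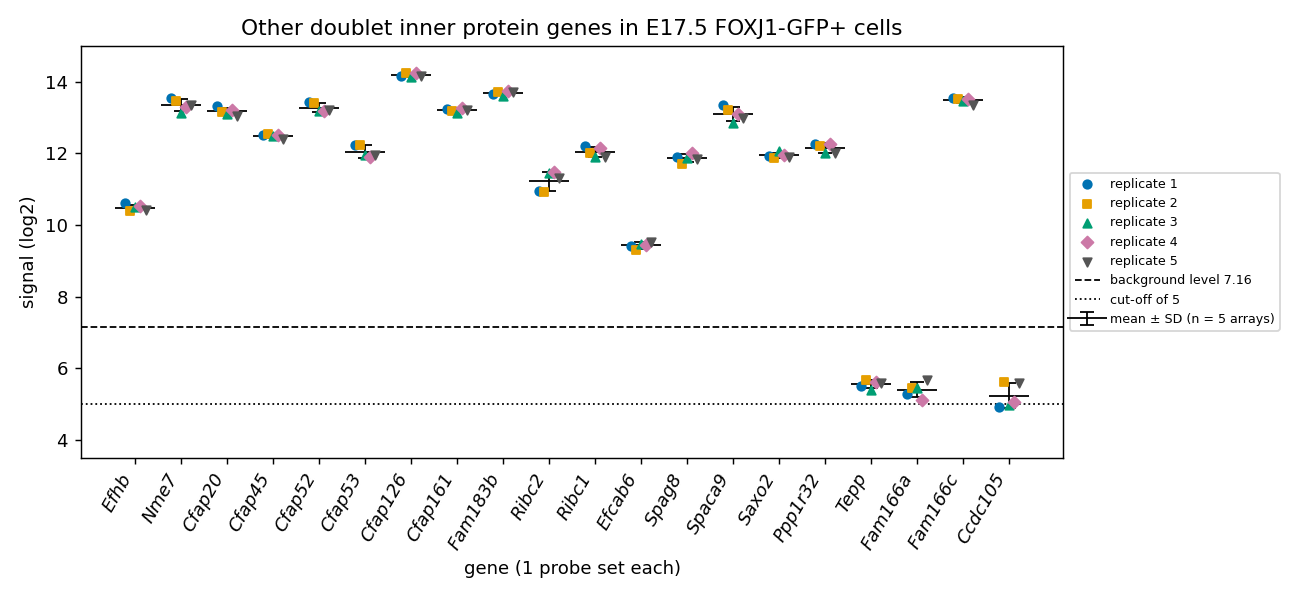
Signal of 20 other genes of the doublet lumen on each of the 5 arrays, for the brightest probe set of each gene. The vertical axis is the log2 signal, each symbol is 1 replicate, the bar with its whiskers is the mean ± SD (n = 5 arrays), and the lines are the background level of 7.16 (dashed) and the cut-off of 5 (dotted). Tepp, Fam166a and Ccdc105 lie below the background line on every array and the other 17 above it.

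X-box motifs were also frequent in this wider set. Of 16 of its genes with a promoter window, 14 held one in the whole window and 10 within 80 bases before a listed start site, beside the 27.9% and 9.21% of all genes given above. A facing pair was found in 2 of the 16, and a forkhead motif in 3.

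Regulators of multiciliated cells, among them factors known to act on such promoters, were measured in the same cells. Each gene was read by its brightest probe set. Of 9 listed regulators 7 were matched on the array, and Mcidas and Gmnc were not. Foxj1 had 12.81, 12.79, 12.86, 12.94 and 12.72 in replicates 1 to 5, a range of 0.22. Rfx3 was at 12.20 ± 0.07 (SD, n = 5 arrays), and Rfx2 had 11.85, 11.80, 12.27, 11.82 and 11.82, with replicate 3 above the other 4. Myb, Trp73, Ccno and E2f4 were at 13.77 ± 0.06, 12.00 ± 0.16, 13.72 ± 0.04 and 9.66 ± 0.13. All 7 measured regulators were above background, and on these probe sets none put the arrays in the order of Tekt5. For Rfx2 the call rested on 1 of 4 probe sets, the others being at 7.40 ± 0.30, 5.52 ± 0.28 and 7.27 ± 0.47 and not called. The probe set of Myb is of a type whose probes can match other transcripts, and its other probe sets were at 12.23 ± 0.10 and 12.61 ± 0.10. Rfx3 and Trp73 had second probe sets at 9.12 ± 0.29 and 8.64 ± 0.14, which were called.

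The genes whose values followed the members most closely were sought for Tekt5 and Efhc2, the 2 members with a range over 0.5. Likeness was the root mean square difference between the deviations from each gene's mean over the 5 arrays, taken over the 11689 other genes above background. For Tekt5 the 3 closest were Nipa1 (0.029), Mr1 (0.031) and Casp6 (0.037). Nipa1 had 11.34, 11.09, 10.48, 10.68 and 10.89 in replicates 1 to 5, and so the same order of arrays as Tekt5. A close match is to be expected when the closest of so many genes is picked over 5 arrays. In all, 693 genes above background had this order. For Efhc2 they were Pdlim5 (0.033), Dpy19l3 (0.036) and Nap1l3 (0.037). None of these 6 is a gene of the inner protein list.

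Markers of ciliated cells were above background in the sorted cells, and so were markers of several other lung cell types. The RNA thus did not go with the ciliated label alone. Of 12 genes of ciliated cells 11 were above background, the exception being the gene annotated as Spag6. The list also gave the name Spag6l for it, and that name was not looked up, so the value stands for the annotation Spag6 alone. Also above background were 8 of 10 genes of club and goblet cells, 9 of 9 of alveolar type 2 cells, 10 of 10 of alveolar type 1 cells, 10 of 10 of endothelium, 9 of 10 of mesenchyme and 6 of 10 of white blood cells. Among genes of basal cells 3 of 8 were above background, among those of red blood cells 1 of 7, of mesothelium 5 of 8 and of neuroendocrine cells 6 of 6. Over all named genes the share was 64.3%. The shares for white blood cells (60%), mesothelium (62.5%), basal cells (37.5%) and red blood cells (14.3%) were below it. For those 4 lists the counts alone do not show that RNA of the cell type was present. The median of the gene means was 12.66 for ciliated cells and 12.04 for each of the alveolar lists. The list averages over the 5 arrays ran from 11.78 to 11.89 for ciliated cells, from 11.09 to 12.42 for alveolar type 2 cells, from 10.81 to 11.75 for endothelium and from 8.17 to 9.07 for white blood cells. Array medians lay between 7.18 and 7.26, and pairs of arrays correlated across probe sets at Pearson's r of 0.987 to 0.994, which is across genes and not over independent samples.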

How the data were processed

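RNA of E17.5 GFP+ cells from 5 biological replicates was amplified, labelled with biotin and hybridised to Affymetrix mouse arrays. The authors deposited log2 values made in Bioconductor; how they were summarised and normalized was not stated in the labels or the paper, and the scale was read from the values (2.37 to 15.24). No 2 arrays were identical. The tip progenitor arrays that the study also used were not analysed here.

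Groups and replicate numbers came from the labels. Gene names came from the annotation of the platform (for 99.4% of probe sets with 1 gene the Entrez identifier was in the GRCm38.p6 gene table). Those with several genes (932) or none (9160) named no gene, and 64 controls were left out of the fits. The mean of each probe set was fitted by lmFit and eBayes (limma 3.58.1, R 4.3.3), tested one-sided against a level, and adjusted by Benjamini-Hochberg over 45037 probe sets. A gene was represented by its probe set with the highest mean. The procedure was tested on simulated data. The number of arrays limits the precision. Other steps used Python 3.11.15, pandas 2.3.3 and scipy 1.17.1.

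The members and gene lists were chosen with earlier results of these data known. Of 34 listed inner protein genes, 14 were not analysed here, some left out after values had been seen. Named are the 8 genes with every probe set, of the wider set the first 4 matched and those not above background, the regulators, and the 3 closest genes of members with a range over 0.5. Cfap52, Saxo2, Ribc2 and Fam166c were named after their values were seen. As alternatives, probe sets were averaged or those with shared targets left out, arrays were quantile-normalized or median-centred, the background genes or their percentile were changed, all arrays had to pass in place of the test, the cut-off was 6, and each replicate was left out.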

Additional observations from a re-analysis of the deposited data

Results flagged for a closer look

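The 49 probe sets of the 8 members, the 20 other inner protein genes and the 7 regulators were checked for a single distant array, and 3 had one, where 0.71 of the range is the critical gap for 5 samples. The brightest probe set of Rfx2 was at 12.27 in replicate 3 and between 11.80 and 11.85 on the other arrays, a gap of 0.90 of its range. A second probe set of Rfx2, not above background and short of the critical gap, was also highest in replicate 3, at 8.06 against 6.95 to 7.30 on the other arrays. A dimmer probe set of Myb was at 12.79 in replicate 3 and between 12.54 and 12.59 elsewhere (gap 0.78). The dimmer probe set of Fam166c, not above background, was at 7.03 in replicate 1 and between 6.28 and 6.47 elsewhere (gap 0.75). About 1 in 20 groups passes this value by chance. None of the 8 members passed it.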

How the results depend on the processing

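The counts of members above background and above the cut-off of 5 and the count of other inner protein genes stayed within 1.5 times of the reported ones under every alternative run, and the median SD of the members lay between 0.10 and 0.14. Of 103 values of single members against background under the alternatives, 101 kept their direction and their side of the threshold. Both exceptions were of Tekt5. At a level of 8.80, the 99th percentile of these background genes, it lay below the level (-0.68), and with the tissue-restricted genes alone (7.95) it lay 0.18 above it and was no longer called; each raises the level by construction. The smallest distance of Tekt3 was 0.67 and that of Efhc2 2.00. Leaving out a replicate gave 0.77 to 1.01 for Tekt5, called each time. Tekt1 has no value without shared-target probe sets, since its only probe set is one. With arrays centred on their medians, Enkur was highest in replicate 4 in place of replicate 3; the order of the arrays in Tekt3, Tekt5 and Efhc2 kept replicate 1 highest and replicate 3 lowest there and after quantile normalization. No paired analysis was possible because the series has 1 group.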
